A study of Mus musculus with 18 samples.

Results

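The chromosomal contacts of the silent Ifng gene and of the active Il4 gene were compared in the same cells, T helper 2 (Th2) cells of the mouse, on the chromosomes that carry neither gene. The arrays were those titled as Ifng 4C in Th2 cells (2 arrays) and Il4 4C in Th2 cells (2 arrays), 4 of the 18 arrays analysed. The regions were the probes on chromosomes 1 to 9 and 12 to 19, which made up 326361 of the 384942 probes of each array, and each array was centred on its median over them. Chromosome 10, which holds Ifng, and chromosome 11, which holds Il4, were left out with the sex chromosomes. In 4C, circular chromosome conformation capture, chromatin is crosslinked, cut and ligated, so that a selected gene, the bait, becomes joined to the DNA that lay close to it in the nucleus, and the joined DNA is amplified from the bait. Here HindIII and then Csp6I cut the DNA, and the amplified DNA was hybridised in Cy5 against Cy3-labelled genomic DNA from those cells, digested with the 2 enzymes, so that a positive log2 ratio marks probes over-represented in the bait's contacts. The Ifng Th2 and the Il4 Th2 group are described by the labels as Th2 cells, under the cell type primary CD4+ T cells, with no strain, genotype, age, cytokine or length of culture. The naive and Th1 groups used beside them, also 2 arrays per bait, carry the same cell type label, which the arrays of a cell line, 3T3-L1, carry too. The remaining groups entered the fit only for its estimate of the spread and as other cells with the same bait: the Ifng bait in Stat4 KO Th1 cells and in 3T3-L1 cells, and the Il4 bait in Stat6 KO Th2 cells, 2 arrays each.

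T helper 1 (Th1) cells make interferon gamma, encoded by Ifng, and Th2 cells make interleukin 4, encoded by Il4. Naive CD4+ T cells become one or the other under cytokines that act through STAT proteins, STAT4 downstream of interleukin 12 and STAT6 downstream of interleukin 4. In the nucleus, active and gene-rich chromatin tends to lie apart from silent and gene-poor chromatin, so that a bait's contacts on other chromosomes can be read against gene density and against the chromosome bands seen under Giemsa stain, in which light bands are rich in genes and dark bands poor.

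Some properties of the arrays bear on every comparison. The design text calls nearly all arrays individual biological replicates and 1 a pool, without saying which. The limma p-values take their spread from the replicates of all 9 groups, and how much of that spread is technical is not known. The protocol text speaks of adherent cells and of other baits, so the titles were followed. The 2 Ifng Th2 arrays had nearly the same distribution of values, with almost all of their sorted values within 0.011 of each other, whereas this held for 10.8% of the sorted values of the 2 Il4 Th2 arrays. Both Ifng Th2 arrays and Il4 Th2 replicate 2 have serial numbers that begin with 40, and Il4 Th2 replicate 1 has one that begins with 31. Over single probes Il4 Th2 replicate 2 correlated more with replicate 2 of the Ifng bait in Th1 cells (r = 0.41) than with its own replicate (r = 0.22). Replicate 1 of the Ifng bait in Th1 cells had almost no bin profile in common with the Th2 arrays (r between -0.018 and 0.11).

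High signal on the chromosome of each bait went with the label. In the 500-kb bin on chromosome 10 from 117500001 to 118000000 (mm8 positions), the highest of that chromosome over the Ifng arrays, the log2 ratio was 3.86 and 3.60 on the Ifng Th2 arrays, against -0.013 and 0.036 on the Il4 Th2 arrays. In the bin on chromosome 11 from 53000001 to 53500000, the highest over the Il4 arrays, it was 0.088 and 0.076 on the Ifng Th2 arrays, against 2.17 and 2.92 on the Il4 Th2 arrays. In both bins the groups lay far apart, and on the Il4 Th2 arrays another bin of chromosome 11 was higher still. Each of these bait bins was chosen as the highest over the bait's own arrays, the Th2 arrays among them. The choice did not use the position of the gene, and it favours a gap between the groups. At a distance of 1 to 2 Mb from the middle of the bait bin the own bait's log2 ratio was 2.69 ± 0.17 for Ifng and 1.16 ± 0.085 for Il4 (SD, n = 2 arrays each). The bait bins themselves averaged 3.73 for Ifng and 2.55 for Il4, so this distance alone does not show how far signal spread. In naive cells the level at 1 to 2 Mb was 2.58 and 2.30 for Ifng and 1.91 and 1.96 for Il4. In Th1 cells the order was the reverse, with 1.35 and 0.93 for Ifng and 1.97 and 2.43 for Il4.

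Away from the bait chromosomes, no 500-kb region passed the test for a difference between the silent and the active gene. The chromosomes were divided into 500-kb bins, and the 4237 bins with at least 20 probes were compared with limma on all 18 arrays, with Benjamini-Hochberg adjustment over all bins at 0.05. None of the 4237 bins passed (0%, lowest adjusted p = 0.554), and 221 had an unadjusted p under 0.05, which is 5.22% of the bins. Of these 221, 207 were higher for Ifng and 14 lower. With the 4 Th2 arrays alone in the fit 458 bins had an unadjusted p under 0.05, and none passed (lowest adjusted p = 0.0533, limma). The surplus on the Ifng side went with a shift common to the genome: bins were on average higher by 0.026 for Ifng, and after each array was centred on the mean of its bins 126 bins had an unadjusted p under 0.05, 68 higher and 58 lower. The absence of calls has a resolution: the 95% interval of a bin's difference had a median half-width of 0.12, and in 4207 bins (99.3%) the whole interval lay within 0.3 of 0 in either direction. Bin levels themselves spread by an SD of 0.087 and 0.071 on the Ifng Th2 arrays, against 0.061 and 0.085 on the Il4 Th2 arrays.

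**Figure D1:**
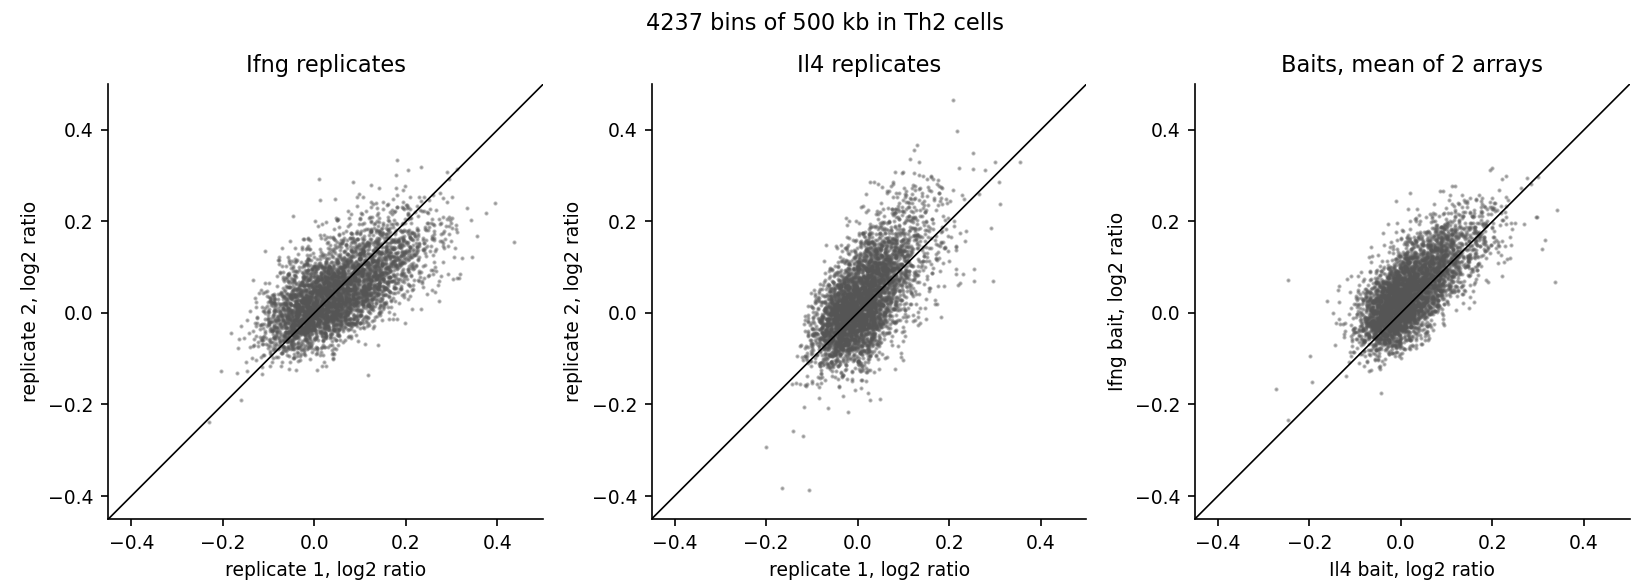
Mean log2 ratio of each of the 4237 bins of 500 kb: replicate 2 against replicate 1 for the Ifng bait (left) and for the Il4 bait (middle), and the Ifng mean against the Il4 mean of 2 arrays (right), with the line of equal values. The cloud between baits lies above the line by 0.026 on average.

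The bins closest to the threshold on the Ifng side lay on 4 chromosomes, and none passed it. The first was in band 12qA1.3 (chromosome 12 from 21000001 to 21500000, 34 probes), with 0.31 and 0.18 on the Ifng Th2 arrays, against 0.0024 and -0.025 on the Il4 Th2 arrays. Its difference was 0.26 ± 0.059 (SE; limma, adjusted p = 0.554). The groups did not overlap there. A bin in band 4qC4 (chromosome 4 from 88500001 to 89000000, 77 probes) had 0.14 and 0.21 on the Ifng Th2 arrays, against -0.086 and 0.0099 on the Il4 Th2 arrays. On chromosome 18 a bin in band 18qE3 (from 78000001 to 78500000) had 0.28 and 0.11 on the Ifng Th2 arrays, against -0.013 and -0.0058 on the Il4 Th2 arrays, and its difference of 0.20 was 0.12 without Ifng replicate 1. A second bin of that chromosome, in band 18qE4 (from 84000001 to 84500000), had 0.26 and 0.19 on the Ifng Th2 arrays, against -0.042 and 0.071 on the Il4 Th2 arrays. In all 4 of these bins both Ifng arrays were above 0.1 and both Il4 arrays below it. The fifth, in band 1qC4 (chromosome 1 from 75500001 to 76000000), had 0.13 and 0.089 on the Ifng Th2 arrays, against -0.038 and -0.091 on the Il4 Th2 arrays. The last 4 had adjusted p-values (limma) of 0.554 and, for the other 3, 0.895.

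On the Il4 side 3 of the 5 bins were above 0 with both baits, and none passed the test. The bin in band 4qD3 (chromosome 4 from 133000001 to 133500000, 69 probes) had 0.12 and 0.015 on the Ifng Th2 arrays, against 0.21 and 0.46 on the Il4 Th2 arrays, a difference of -0.27 ± 0.081 (SE; limma, adjusted p = 0.895). This difference was -0.14 without Il4 Th2 replicate 2 and -0.40 without Il4 Th2 replicate 1. The bin in band 19qA (chromosome 19 from 4000001 to 4500000) had 0.17 and 0.14 on the Ifng Th2 arrays, against 0.30 and 0.33 on the Il4 Th2 arrays. The bin in band 5qF (chromosome 5 from 123000001 to 123500000) had 0.15 and 0.12 on the Ifng Th2 arrays, against 0.22 and 0.40 on the Il4 Th2 arrays, and its difference of -0.17 was -0.079 without Il4 Th2 replicate 2 and -0.26 without replicate 1. The Il4 arrays were the higher pair in each of these 3. In the remaining bins the level was below 0 with Ifng: in band 14qA2 (chromosome 14 from 17500001 to 18000000) it was -0.053 and -0.055 on the Ifng Th2 arrays, against 0.078 and 0.045 on the Il4 Th2 arrays. In band 1qA5 (chromosome 1 from 30500001 to 31000000) it was -0.076 and -0.041 on the Ifng Th2 arrays, against 0.051 and 0.067 on the Il4 Th2 arrays. The groups did not overlap in any of these 10 bins, as in 1795 of all bins (42.4%), and the last 4 bins had an adjusted p of 0.939 (limma). All 10 bins kept their direction in each of the 10 alternative fits made for single bins, but most of these fits could not change it. With a Th2 array left out it was fixed, since the arrays of the baits did not overlap. The replicate block, trend and robust settings and the 4 Th2 arrays alone left the difference itself as it was. None of these bins passed in the alternative fits that kept all 4 Th2 arrays.

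**Figure D2:**
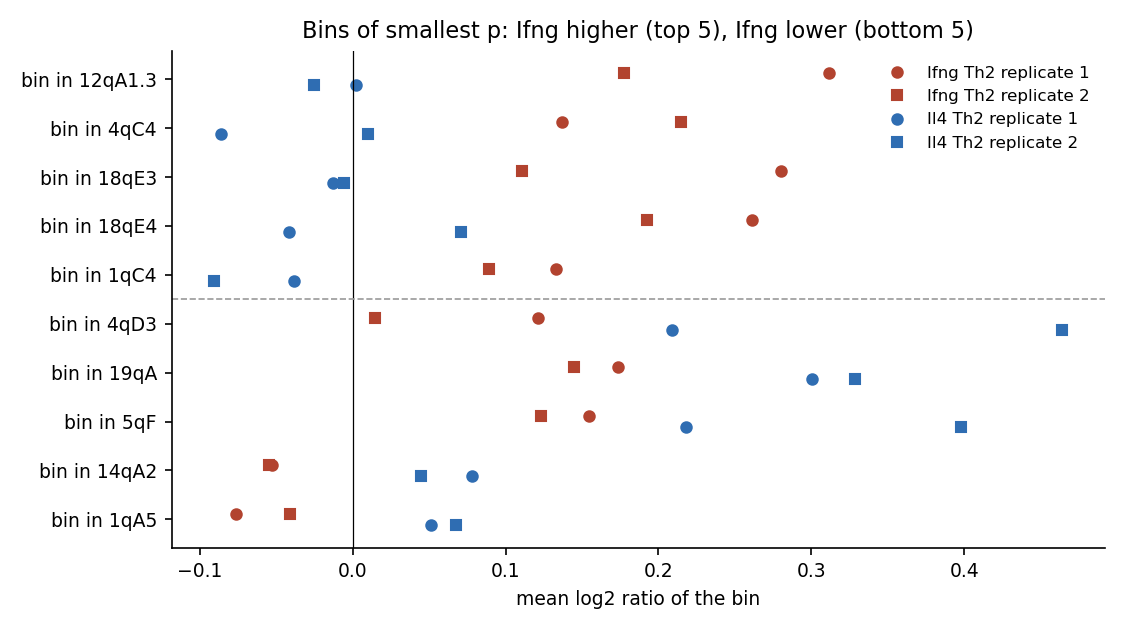
Mean log2 ratio on each array for the bins of smallest p, named by band, with the Ifng arrays above the Il4 arrays in each row. In the upper 5 the Il4 arrays lie between -0.091 and 0.071, whereas in 4qD3, 19qA and 5qF all 4 arrays lie above 0.

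Both baits shared a large-scale profile, and the correlation between them grew with the size of the window. Over the 500-kb bins the replicates correlated at r = 0.64 for Ifng and 0.64 for Il4, and the 4 pairs made of 1 Ifng and 1 Il4 array at 0.50 to 0.65. The profile was not confined to Th2 cells. The Ifng Th2 arrays correlated with the Il4 Th1 arrays at 0.57 to 0.72 and with the Ifng Th1 arrays at 0.0034 to 0.35. For the Il4 Th2 arrays these ranges were 0.59 to 0.72 and -0.018 to 0.54. Over single probes the replicates correlated at only 0.27 for Ifng and 0.22 for Il4, and the pairs between baits at 0.12 to 0.18. In windows of 5000 kb the replicates reached 0.87 for both baits and the pairs between baits 0.75 to 0.88. The gap between replicates and baits was therefore widest, in proportion, at the smallest windows. These correlations are descriptions across the genome, and the windows share arrays and neighbours.

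**Figure D3:**
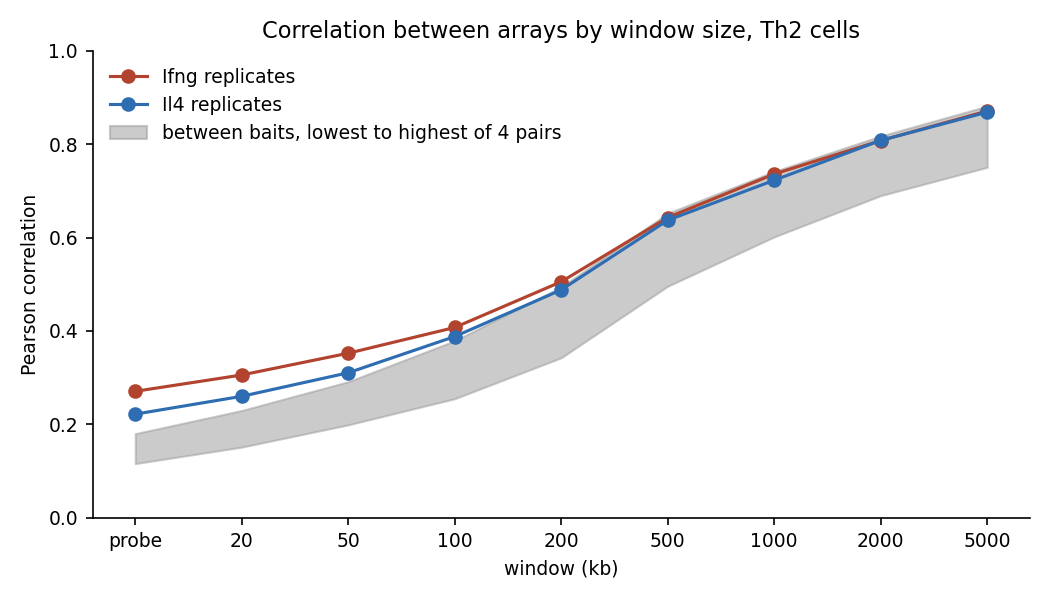
Pearson correlation between arrays against window size in kb, for the Ifng replicates, the Il4 replicates and the 4 pairs of 1 Ifng and 1 Il4 array (grey band). Between baits the correlation climbs to 0.75 to 0.88 at 5000 kb, beside 0.87 for both pairs of replicates.

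The shared profile followed the gene-rich bands. Of the 20 highest of 334 bands for Ifng and the 20 highest for Il4, 12 were the same, and of the 20 lowest 6 were the same. The highest band over the 4 arrays was 4qD3, with 0.19 and 0.16 on the Ifng Th2 arrays, against 0.13 and 0.21 on the Il4 Th2 arrays. Band 4qE2, at the distal end of chromosome 4, had 0.21 and 0.15 on the Ifng Th2 arrays, against 0.080 and 0.16 on the Il4 Th2 arrays. Band 15qE1 had 0.17 and 0.13 on the Ifng Th2 arrays, against 0.13 and 0.16 on the Il4 Th2 arrays. In these 3 bands the arrays of the baits overlapped. The lowest was 1qE1.2, a band with 0 protein-coding genes in the RefSeq table, with -0.066 and 0.013 on the Ifng Th2 arrays, against -0.080 and -0.050 on the Il4 Th2 arrays. Across the 334 bands the level correlated with the number of protein-coding genes per Mb (taken from the same-named band of GRCm38.p6) at r = 0.58 and 0.46 on the Ifng Th2 arrays, against 0.67 and 0.62 on the Il4 Th2 arrays. The 84 bands with the most genes per Mb averaged 0.084 for Ifng and 0.062 for Il4, and the 84 with the fewest 0.019 for Ifng and -0.0074 for Il4.

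No band passed the test between the baits. Of the 334 bands 0 passed (0%, lowest adjusted p = 0.510, limma), with 21 at an unadjusted p under 0.05, all 21 of them higher for Ifng. Their common direction went with the general shift, as 293 of all 334 bands were higher for Ifng, with a median difference of 0.026. With quantile normalization 7 bands had an unadjusted p under 0.05 (limma). The band with the smallest p was 9qE4, with 0.048 and 0.10 on the Ifng Th2 arrays, against -0.051 and -0.033 on the Il4 Th2 arrays. Its difference of 0.12 ± 0.030 (SE) had an adjusted p of 0.510. It was followed by 12qF2, 8qD2, 5qG3 and 1qG2, with differences between 0.079 and 0.10. On the Il4 side the 5 bands of smallest p (8qC4, 5qC3.2, 6qD2, 7qA2 and 13qC2) differed by -0.018 to -0.039, and in 2 of them (6qD2 and 7qA2) the arrays overlapped. The median half-width of a band's 95% interval was 0.060, against 0.12 for a 500-kb bin.

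Light bands carried more of both baits' signal than dark ones. The mean of the 1743 bins in the lightest class minus that of the 2494 bins in stained bands was 0.023 and 0.017 on the Ifng Th2 arrays, against 0.012 and 0.020 on the Il4 Th2 arrays. The groups overlapped, and the difference between baits of 0.0038 had an exact two-sided permutation p of 0.667, where 2 arrays against 2 cannot go below 0.333. With an array left out it lay between 5.0e-05 and 0.0075, the highest value without Il4 Th2 replicate 2. Each array declined through the 4 main stain classes from lightest to darkest, and the 7 bins of a further dark class left out of this order lay outside the range between the grey and the darkest class on all 4 arrays. The lightest bins averaged 0.062 and the darkest 0.030 for Ifng, and the lightest 0.033 and the darkest 0.0070 for Il4.

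At the chromosome ends the arrays of the baits did not overlap. The last 5 Mb of each chromosome, the telomeric end of the mouse's one-armed chromosomes (168 bins), lay above the array's mean by 0.046 and 0.036 on the Ifng Th2 arrays, against 0.010 and 0.022 on the Il4 Th2 arrays. The first 5 Mb, next to the centromere (168 bins), lay below it, at -0.021 and -0.012 on the Ifng Th2 arrays, against -0.0027 and -0.0070 on the Il4 Th2 arrays. With Ifng the ends lay farther from the mean in both directions, by 0.025 at the telomeric and -0.012 at the centromeric end, the second being -0.0075 without Ifng Th2 replicate 1. Both exact permutation p-values were 0.333, the smallest the design allows, so neither difference could pass a threshold of 0.05 with 2 arrays a group. The order of the baits at the telomeric end was not the same in other cells. In Th1 cells this end lay at 0.0040 and 0.013 for Ifng and at 0.033 and 0.038 for Il4. In naive cells it lay at 0.038 and 0.056 for Ifng and at 0.012 and 0.054 for Il4, with overlap.

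**Figure D4:**
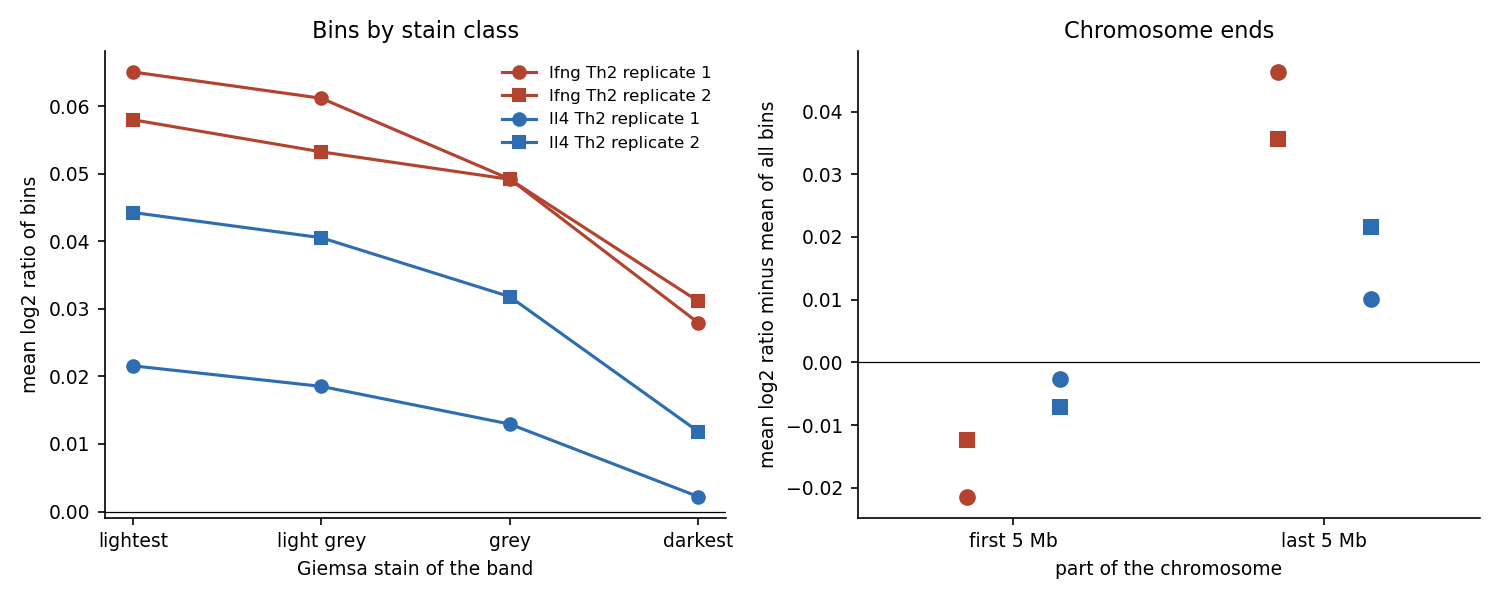
Left, mean log2 ratio of the bins by Giemsa stain class of their band, a line per array; right, mean log2 ratio of the first and last 5 Mb of the chromosomes minus the array's mean over all bins, a point per array. All 4 lines decline from the lightest to the darkest of the 4 classes drawn, and at both ends the Ifng points lie farther from 0 than the Il4 points.

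Whole chromosomes showed the general shift. All 17 had a higher mean with Ifng, by 0.015 to 0.035, without overlap of the arrays, and 0 passed (0%, lowest adjusted p = 0.0594, limma), with 11 at an unadjusted p under 0.05. With each array centred on the mean of its bins the 17 differences ran from -0.011 to 0.0087 (lowest adjusted p = 0.939). With quantile normalization, which gives all arrays the same distribution, 0 had an unadjusted p under 0.05 (lowest adjusted p = 0.950, limma). Probes above 1.5 made up 1.10% and 0.98% on the Ifng Th2 arrays, against 0.65% and 0.55% on the Il4 Th2 arrays. The part of these high probes in the shift was not tested. With the 4 Th2 arrays alone in the fit 16 chromosomes passed, and without Il4 Th2 replicate 2 it was 10. Chromosome 7, the highest with both baits, averaged 0.072 and 0.065 on the Ifng Th2 arrays, against 0.035 and 0.052 on the Il4 Th2 arrays. Chromosome 3, the lowest with both baits, averaged 0.031 and 0.034 on the Ifng Th2 arrays, against 0.0010 and 0.0083 on the Il4 Th2 arrays. Chromosome 16 had the largest difference and chromosome 19 the smallest.

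Each bait was also described against its own mean level. With the array mean set to 0, 70 bins lay above it for Ifng (1.65% of the bins) and 36 for Il4 (0.85%), by limma at an adjusted p of 0.05. These numbers rest on the arrays in the fit: for Ifng it was 0 or 1 without an Ifng array, for Il4 it was 2 without Il4 Th2 replicate 1 and 0 without replicate 2, and with the 4 Th2 arrays alone they were 535 for Ifng and 369 for Il4. Of the 70 and 36, 12 were in both lists, 17.1% of the Ifng list and 33.3% of the Il4 list. No bin was above for one bait and below for the other, and 67 of the 70 Ifng bins lay above 0 in the mean of the Il4 arrays, as did 36 of the 36 Il4 bins in the mean of the Ifng arrays. The baits correlated over all bins (r = 0.50 to 0.65), so bins chosen as high for one would mostly be above 0 for the other. The share of all bins above 0 was not computed. The 12 lay on 8 chromosomes, 9 of them in the lightest bands (41.1% of all bins are in such bands). The arrays of the baits overlapped in all but 1, in 5qG2, which the choice of bins high with both baits favours. Of all bins 42.4% showed no overlap, counted before the array's mean was set to 0. The highest, in band 8qE1 (chromosome 8 from 125000001 to 125500000), had 0.32 and 0.17 on the Ifng Th2 arrays, against 0.24 and 0.32 on the Il4 Th2 arrays, each minus its array's mean. In band 7qB3 (chromosome 7 from 45000001 to 45500000) the values were 0.38 and 0.11 on the Ifng Th2 arrays, against 0.30 and 0.21 on the Il4 Th2 arrays. In the mean of the 12 bins the Th2 arrays stood at 0.23 and 0.16 for Ifng and at 0.19 and 0.23 for Il4. In other T cells the mean of the same 12 bins also lay above the array's mean. In naive cells it was 0.15 and 0.23 for Ifng and 0.11 and 0.27 for Il4. In Th1 cells it was 0.070 and 0.10 for Ifng and 0.20 and 0.24 for Il4. It was 0.093 and 0.081 for Ifng in Stat4 KO Th1 cells, and 0.22 and 0.16 for Il4 in Stat6 KO Th2 cells. Of the 12 bins, 10 and 11 lay above the mean on the Ifng Th1 arrays, and 11 and 10 on the Stat4 KO Th1 arrays. They averaged -0.014 and 0.011 with the Ifng bait in 3T3-L1 cells, a preadipocyte line. The number shared depends on the arrays, since without any 1 of the 4 it was 0 or 1, and with the 4 Th2 arrays alone in the fit it was 231.

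Contacts called within each array were few, and none was shared. A bin was called where it held more of the array's highest 5% of probes than chance gives (one-sided binomial test, Benjamini-Hochberg adjusted over bins). This gave 0 and 0 bins on the Ifng Th2 arrays, against 4 and 21 on the Il4 Th2 arrays. In both replicates there were 0 bins for Ifng and 1 for Il4, in band 7qF5 (chromosome 7 from 142000001 to 142500000), which is also among the 12 above. Its mean log2 ratio was 0.18 and 0.30 on the Ifng Th2 arrays, against 0.21 and 0.20 on the Il4 Th2 arrays, and the groups overlapped.

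The bands of T cell genes were compared in the same way. Genes were placed by band only, through their GRCm38.p6 positions, so a named gene need not lie where a band's signal does, and several genes can share a band. For the Th1 programme 19 of 20 genes were placed, in 14 bands, and for the Th2 programme 16 of 20, also in 14 bands. None of the bands of these or the other lists passed. The median difference, Ifng minus Il4, was 0.026 over the Th1 bands and 0.038 over the Th2 bands, beside 0.026 over all 334 bands. Over the bands of naive and pan-T genes it was 0.017, over those of JAK-STAT and SOCS genes, which carry and damp cytokine signals, 0.023, over those of housekeeping genes 0.023, and over those of neuronal genes 0.029. The lists lay farther apart in level than in difference: the median level was 0.079 for Ifng and 0.066 for Il4 in housekeeping bands, 0.095 for Ifng and 0.050 for Il4 in Th2 bands, and 0.020 for Ifng and -0.0086 for Il4 in neuronal bands. The median gene density was 12.05 protein-coding genes per Mb in the housekeeping bands, 9.28 in the naive and pan-T, 8.97 in the Th1, 8.64 in the Th2 and 2.60 in the neuronal bands. The neuronal bands were thus lowest in density and in level of these lists, whereas for Ifng the Th2 bands had a higher level than the denser housekeeping bands, and the part of density in the levels was not tested.

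Landmark genes lay in bands of high and of low level. Band 4qD3, which holds Runx3, a factor of Th1 and CD8 T cells, was the third highest for Ifng and the highest for Il4. Band 8qE1, which holds Maf, a factor that activates Il4, averaged 0.13 for Ifng and 0.088 for Il4. Band 7qF3, which holds Il4ra, the receptor chain for interleukin 4, averaged 0.11 for Ifng and 0.063 for Il4. Band 2qA1, with Gata3, the master regulator of Th2 cells, averaged 0.036 for Ifng and 0.032 for Il4, and differed by 0.0041 (95% interval -0.045 to 0.053). Band 6qC1, with Il12rb2, a receptor chain for interleukin 12, averaged 0.026 for Ifng and -0.0081 for Il4. Of the 21 bands that hold the 24 landmark genes, 20 were higher for Ifng, as were 293 of all 334 bands.

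Differences that passed the test appeared at single probes. Of the 326361 probes, 37 were higher with Ifng (0.0113%) and 24 higher with Il4 (0.00735%) at an adjusted p of 0.05 (limma, all 18 arrays), and 27677 had an unadjusted p under 0.05 (8.48%). The probe with the smallest p on the Ifng side was on chromosome 3 at position 8556848 (band 3qA1), with 4.30 and 3.71 on the Ifng Th2 arrays, against -0.14 and -0.21 on the Il4 Th2 arrays (adjusted p = 3.51e-05, limma). The largest difference was on chromosome 13 at position 90502834 (band 13qC3), with 5.25 and 4.96 on the Ifng Th2 arrays, against -0.14 and -0.075 on the Il4 Th2 arrays. On the Il4 side a probe on chromosome 14 at position 102652522 (band 14qE2.3) had 0.29 and 0.14 on the Ifng Th2 arrays, against 3.21 and 3.41 on the Il4 Th2 arrays. In these probes both replicates of one bait were above 3 and both of the other below 0.3. A probe on chromosome 13 at position 23524935 (band 13qA3.1) had -0.44 and -0.020 on the Ifng Th2 arrays, against 3.36 and 3.58 on the Il4 Th2 arrays. In all 61 probes the groups did not overlap, which their choice by the p-value of this same contrast makes nearly certain.

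The called probes were mostly isolated, and most were not high in other cells. The next probe on either side was above 1.5 in the bait's mean beside 1 of the 37 Ifng probes and 1 of the 24 Il4 probes. On arrays of the same bait in other cells, 14 of the 37 Ifng probes and 7 of the 24 Il4 probes were above 1.5 at least once. On arrays of the other bait in other cells this was so for 1 of the 37 and 0 of the 24. These counts are partly set by the test, since a probe that varies between replicates of another group passes less readily. They also rest on unequal numbers of arrays for the 2 baits, and the share over all probes was not computed. Most high probes did not repeat at all: 3576 and 3194 probes were above 1.5 on the Ifng Th2 arrays, against 2113 and 1795 on the Il4 Th2 arrays, but only 91 were so on both Ifng arrays, 79 on both Il4 arrays and 0 on all 4. The calls rest on a spread taken partly from the other groups' arrays. With the 4 Th2 arrays alone in the fit 0 probes passed (lowest adjusted p = 0.0706, 22985 at an unadjusted p under 0.05), and leaving out a Th2 array gave 1001 to 2798 calls, mostly higher with the bait of the lone array.

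**Figure D5:**
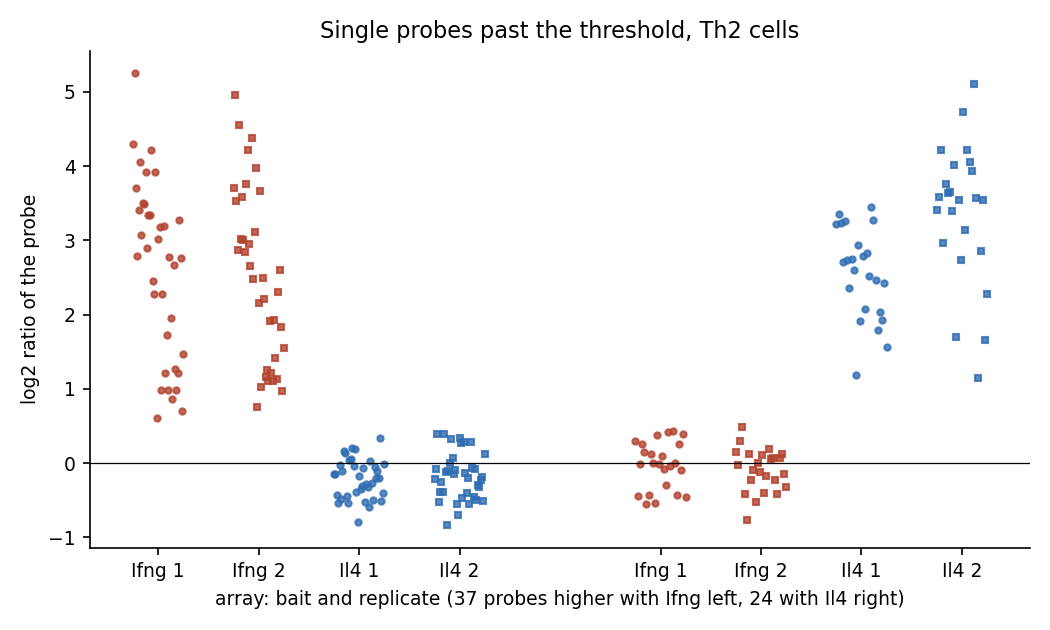
Log2 ratio on each Th2 array of the 37 probes higher with Ifng (left) and the 24 higher with Il4 (right), a point per probe. The bait named has means between 0.69 and 5.10, and the other bait has means between -0.74 and 0.38.

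Larger windows gave fewer calls. In windows of 20 kb with at least 3 probes 11 were higher with Ifng (0.0152% of 72230) and 0 lower, and in windows of 50 kb with at least 5 probes 2 were higher (0.00507% of 39436) and 0 lower, while windows of 100 kb gave 0. The 11 windows held 3 to 5 probes each and averaged 0.92 to 1.30 for Ifng and -0.29 to 0.24 for Il4. In 6 of the 11 a second probe was above 1.5 in the Ifng mean, so those did not rest on 1 probe. Among these, the window in band 3qG1 (chromosome 3 from 122460001 to 122480000, 5 probes) had 0.91 and 1.06 on the Ifng Th2 arrays, against 0.011 and -0.037 on the Il4 Th2 arrays. The 50-kb window in band 13qC3 holds the probe of chromosome 13 with the largest difference, and no second probe above 1.5. With the 4 Th2 arrays alone, and with the serial series as a block, both window sizes gave 0 calls. Without Il4 Th2 replicate 2 the 20-kb windows gave 0 calls, without Il4 Th2 replicate 1 they gave 18 higher and 138 lower, and without an Ifng array 517 and 519 higher with Ifng.

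The bait difference in Th2 cells was set against that in naive and in Th1 cells by the same fit. In naive cells 19 of the 4237 bins were higher and 1 lower for Ifng, and in Th1 cells 6 were higher and 56 lower. Bins at an unadjusted p under 0.05 (limma) made up 6.07% in naive and 18.8% in Th1 cells, beside 5.22% in Th2 cells. The Th1 counts rest in part on Ifng Th1 replicate 1, whose bin profile correlated with the Th2 arrays at r between -0.018 and 0.11. The test of the difference itself, the bait difference in Th2 minus that in naive cells, passed for 4 bins, all lower (0.0944% of the bins, 166 at an unadjusted p under 0.05). Both Ifng naive arrays have serial numbers that begin with 31 and both Ifng Th2 arrays numbers that begin with 40, so that for the Ifng bait cell type and serial series cannot be told apart. With the serial series as a block 0 bins passed (lowest adjusted p = 0.077), and 0 with each array divided by the spread of its bins (lowest adjusted p = 0.163). In these 4 bins, on chromosomes 2, 8, 12 and 16, the Ifng bait was high in naive cells (0.33 to 0.67) and not in Th2 cells (-0.076 to 0.15). Against Th1 cells the difference passed for 2 bins, both higher (0.0472%, 629 at an unadjusted p under 0.05), in bands 12qA1.3 and 15qE1. With quantile normalization, scaling by the spread of the bins, or trend and robust settings 0 passed (lowest adjusted p = 0.233, 0.0546 and 0.0533). The first is also the bin of smallest p in Th2 cells. In 15qE1 (chromosome 15 from 80000001 to 80500000) the values were 0.26 and 0.26 on the Ifng Th2 arrays and 0.16 and 0.11 on the Il4 Th2 arrays, whereas in Th1 cells they were 0.14 and 0.019 for Ifng and 0.40 and 0.44 for Il4. The calls also depended on single arrays: left out in turn, the 8 arrays of each test gave 0 to 6 calls against naive cells, with 0 without Il4 Th2 replicate 1, and 0 to 2 against Th1 cells, with 0 without any of 4 of them (Ifng Th2 replicate 1, Il4 Th2 replicate 1, Ifng Th1 replicate 2 and Il4 Th1 replicate 1).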

How the data were processed

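The authors deposited 1 table per array with log2 ratios of Cy5 (4C DNA) over Cy3 (genomic DNA) per probe, per the labels' protocols. The base of the logarithm was taken as 2. Scanner software, background correction, any normalization and the build are not given in the sources used here. Positions fit mm8: 0 of the 17 chromosomes had a probe past the mm8 end, against 10 for mm7, 5 for mm9 and 8 for mm10. Groups came from the titles.

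Each array was centred on its median over chromosomes 1 to 9 and 12 to 19 and summarised as means of 500-kb bins (20 probes or more), of bands (circlize 0.4.16) and of chromosomes, with no loess or quantile step. limma 3.58.1 in R 4.3.3 (lmFit, contrasts, eBayes) was fitted on all 18 arrays in 9 groups (9 residual degrees of freedom), two-sided, with Benjamini-Hochberg adjustment at 0.05. The fit was tested on simulated bins. Ends and stain classes were compared by exact permutation. Genes within 200 kb of a band's edge were left out.

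Where no bin passed, the 5 bins and bands of smallest p in each direction are named, then landmark genes by band. Single probes, windows of 100 kb and less, and bins against the array's own mean, were analysed after seeing the data, and the probes and windows described were chosen after their values were seen. The members and lists were chosen with earlier results of these data known. Samples with the same replicate number are not said to share an animal or day, and over bins their deviations correlated at -0.15. Permutation tests used scipy 1.17.1, figures matplotlib 3.10.9, and tables pandas 2.3.3 with numpy 2.4.6, under Python 3.11.15. The number of arrays limits the precision. The result for 1 landmark band is not reported here.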

Additional observations from a re-analysis of the deposited data

Results flagged for a closer look

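In 6 bins of 500 kb the difference between the Ifng and the Il4 bait was not the same in Th2 cells as in another cell type, by the test of that difference in the limma fit. Against naive cells it was lower by -0.47 ± 0.069 (SE, adjusted p = 0.00335) in band 16qC4, from 92500001 on chromosome 16. There Ifng stood at 0.10 and 0.15 in Th2 cells and at 0.62 and 0.67 in naive cells, while Il4 stood at 0.085 and 0.056 in Th2 cells and at 0.15 and 0.092 in naive cells. Without Il4 Th2 replicate 1 its adjusted p was 0.0534, and with any other of the 8 arrays left out it passed. In band 8qC2, from 84500001 on chromosome 8, the difference was -0.50 (adjusted p = 0.0102), and it passed without 5 of the 8 arrays in turn. In band 2qB, from 43500001 on chromosome 2, it was -0.53 (adjusted p = 0.0139), and it passed without 4 of the 8. In band 12qF1, from 107500001 on chromosome 12, it was -0.42 (adjusted p = 0.0353), and it passed without 1 of the 8. None of the 4 passed with the serial series as a block (adjusted p = 0.077, 0.077, 0.345 and 1.00 in the order given) or with each array divided by the spread of its bins (0.163 to 0.341). With quantile normalization 16qC4 alone of the 4 passed.

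Against Th1 cells the bait difference was higher by 0.48 in band 12qA1.3, from 21000001 on chromosome 12, and by 0.47 in band 15qE1, from 80000001 on chromosome 15 (adjusted p = 0.0276 each, limma). In 12qA1.3 Ifng stood at 0.31 and 0.18 in Th2 cells and at 0.013 and -0.063 in Th1 cells, and Il4 at 0.0024 and -0.025 in Th2 cells and at 0.18 and 0.22 in Th1 cells. The first passed without 2 of the 8 arrays in turn and the second without 1 of the 8. Neither passed with each array divided by the spread of its bins (adjusted p = 0.0546 and 0.196), with quantile normalization (0.233 and 0.240) or with trend and robust settings (0.0533 and 0.177), and both passed with the serial series as a block (0.0258 each).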

How the results depend on the processing

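Alternatives below named as bins of 100 kb and less, mean centring, fits of the 4 Th2 arrays with a block, all those for single probes and for bins above the array mean, and the omission of naive or Th1 arrays other than Ifng Th1 replicate 2 were chosen after seeing the data. For bins the lowest adjusted p (limma) was 0.0533 with the 4 Th2 arrays alone, with 458 at an unadjusted p under 0.05. With array weights it was 0.0544, with 477, beside 0.554 and 221 in the main fit. The number of bins that differed between the baits stayed 0 there and in the other fits, the replicate block (227 at an unadjusted p under 0.05) among them. It was 2 with arrays of serial series 40 alone, which sets 1 Il4 Th2 array against both Ifng Th2 arrays, 2 with 50-kb and 11 with 20-kb bins, and 9 with the replicate block in the 4 Th2 arrays alone. Crossing the replicate numbers in that last fit gave 5 calls. Chromosomes gave 2 calls with trend and robust settings, 16 with the 4 Th2 arrays alone and 0 to 10 with an array left out, and bands gave 0 in every fit. The bait difference against naive cells gave 1 call with quantile normalization, 0 with scaling, 0 with the serial series as a block and 0 to 6 with an array left out. Against Th1 cells it gave 0 with quantile normalization, with scaling and with trend and robust settings, and 0 to 2 with an array left out. With the replicate block these gave 4 and 2 calls, as without it. Single probes gave 362 calls with quantile normalization, 42 with the replicate block, 23 with the serial series as a block, 24 with trend and robust settings, 0 with the 4 Th2 arrays alone and 1001 to 2798 with an array left out. Bins above the mean with both baits numbered 29 with quantile normalization, 95 with scaling, 6 in 1000-kb bins, 231 with the 4 Th2 arrays alone and 0 to 1 with an array left out. Stain classes and chromosome ends kept their direction in every alternative. For the ends this was fixed where a Th2 array was left out, since the arrays of the baits did not overlap there. The number of shared contact bins was 0 throughout, which shows nothing of stability, since Ifng had 0 contact bins in each alternative. The cause of these changes was not tested. A fit of 4 arrays has fewer degrees of freedom, and a lone array was assumed to vary like the other groups. With 2 arrays a group no bin difference passed, the largest of 0.32 included.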
